A study of Thunnus thynnus with 30 samples.

Results

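Zpld1, Otol1 and otomp are 3 rows of inner ear matrix genes among the 7295 rows of a gene count table from whole wild-type larvae of Atlantic bluefin tuna (Thunnus thynnus). They were taken by name, and the names had been selected on their counts in these same libraries, that is on the differences between ages and DHA levels given below. The members' own levels and differences are therefore described without tests. From 2 to 15 days post hatch (dph), larvae in V-tanks ate rotifers (Brachionus rotundiformis) whose content of docosahexaenoic acid (DHA, an omega-3 fatty acid) had been set by enrichment. The rotifers held 2.0 mg DHA per g dry weight (low), 3.6 mg (medium) or 10.9 mg (high), and each level had 3 tanks. Whole larvae were sequenced at 5, 10 and 15 dph, which gives 9 groups of age and DHA level and 26 libraries. Each group had 3 libraries except 5 dph high, which had 2, titled with the numbers 2 and 3. The treatment label of the library titled 3 gives a different sample number, and the title number is used here. The labels do not say which tank or how many larvae went into a library.

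The inner ear of a bony fish holds otoliths, stones of calcium carbonate laid down on a protein matrix above the hair cells, which sense gravity and sound. Otolin, encoded by otol1, is a collagen-like scaffold protein of that matrix, and otomp encodes otolith matrix protein, which in zebrafish is needed for otoliths to reach their normal size. ZPLD1 is a zona pellucida domain protein, and a related fish protein, cupulin, is a main component of the cupula, the gel that covers the hair cells of the semicircular canals. These genes are known from secretory and supporting cells of the ear, a small share of a whole larva, and fewer cells of a type and less RNA per cell cannot be told apart in whole-body RNA.

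The libraries held 12805866 to 19169404 counts. All 3 members passed the filter on low counts, and their counts per library ran from 9 to 780 for Zpld1, from 103 to 962 for Otol1 and from 7 to 205 for otomp. Levels are given as CPM, the usual rate of counts per library total, with each total scaled by its TMM factor (a trimmed mean of ratios between libraries). They are not corrected for gene length and are compared here only within a row. At the lowest counts the precision is limited by counting: 9 Zpld1 counts at 5 dph medium replicate 1 gave 0.528 CPM with an exact Poisson 95% interval of 0.242 to 1.00, which covers counting error only. Some libraries stood apart. The library of 15 dph medium replicate 3 had the highest Zpld1 and Otol1 levels of the 26 and the lowest otomp level, while over all tested rows it was the lowest library in 3.52% and the highest in 6.24%, beside an even share of 3.85%. The 5 dph medium replicate 2 and 10 dph low replicate 2 libraries had the lowest TMM factors, 0.808 and 0.861. They stood farther apart over all tested rows. The first was the lowest library in 9.65% and the highest in 20.1%, the second the lowest in 16.9% and the highest in 5.57%. A length score was taken as the mean log2 CPM of 26 rows of very long genes minus that of 136 rows of short ones. Rows were picked by name. The short ones were respiratory chain, ATP synthase and ribosomal protein genes of at least 50 CPM on average. The score therefore also follows the expression of those genes, which it cannot tell apart from gene length. It was -5.25 ± 0.65 (SD, n = 3) at 10 dph low, against -4.17 ± 0.20 (n = 3) at 10 dph medium and -4.42 ± 0.27 (n = 3) at 10 dph high. At 5 dph it was -3.65 ± 0.15 (n = 3) at low, -4.72 ± 0.46 (n = 3) at medium and -4.15 ± 0.0125 (n = 2) at high DHA.

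Zpld1 was higher at each later age and lower with more DHA. At 5 dph its level was 3.36, 3.11 and 2.31 CPM in the low DHA libraries, 0.528, 0.830 and 1.38 CPM at medium DHA, and 0.547 and 0.622 CPM at high DHA. At 10 dph it was 6.46, 7.98 and 5.47 CPM at low DHA, 0.902, 4.43 and 5.46 CPM at medium DHA, and 1.37, 1.94 and 2.76 CPM at high DHA. At 15 dph it was 35.8, 24.996 and 40.4 CPM at low DHA, 27.6, 24.7 and 41.4 CPM at medium DHA, and 16.2, 15.5 and 18.7 CPM at high DHA. At each age every high DHA library lay below every low DHA library, and medium DHA changed sides: its libraries lay near the high group at 5 dph and among the low group at 15 dph. At 10 dph the medium libraries all lay below the low DHA libraries, the highest by a narrow margin (5.455 against 5.4745 CPM), with replicate 1 below every other library of that age and replicates 2 and 3 above every high DHA library.

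The group means of Zpld1 ran from 0.585 ± 0.053 CPM (SD, n = 2) at 5 dph high to 33.7 ± 7.92 CPM (SD, n = 3) at 15 dph low, a ratio of 57.7. Averaged over DHA levels, the fitted level was 3.12-fold higher at 10 than at 5 dph (log2 fold change 1.64 ± 0.28, SE) and 7.15-fold higher at 15 than at 10 dph (2.84 ± 0.20). The difference of high from low DHA was -2.32 ± 0.58 at 5 dph, -1.71 ± 0.39 at 10 dph and -1.005 ± 0.29 at 15 dph on the log2 scale, which is 4.99-, 3.28- and 2.01-fold lower. The fitted fold was smaller at each later age, but the changes were not large beside their errors. The log2 difference changed by 0.61 ± 0.73 (SE) from 5 to 10 dph and by 0.71 ± 0.49 from 10 to 15 dph. The 5 dph high group held 22 Zpld1 counts in all. The gap between the group means was larger at later ages, from 2.93 and 0.585 CPM at 5 dph to 33.7 and 16.8 CPM at 15 dph. The difference of medium from low DHA was -1.67 ± 0.49, -0.88 ± 0.36 and -0.11 ± 0.29 at the 3 ages. The 10 dph value rested on single libraries: it was -0.41 without medium replicate 1 and -1.38 without medium replicate 3.

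Otol1 was also highest at 15 dph and lower at high than at low DHA, with smaller differences than Zpld1, and at 5 dph its lowest group mean was that of medium DHA. At 5 dph its level was 16.0, 16.8 and 12.6 CPM at low DHA, 6.05, 9.05 and 9.84 CPM at medium DHA, and 10.3 and 8.54 CPM at high DHA. At 10 dph it was 13.6, 16.0 and 13.8 CPM at low DHA, 10.3, 10.2 and 13.4 CPM at medium DHA, and 8.68, 9.96 and 10.3 CPM at high DHA. At 15 dph it was 47.5, 37.2 and 44.1 CPM at low DHA, 27.5, 33.3 and 53.3 CPM at medium DHA, and 23.6, 26.04 and 30.8 CPM at high DHA. High DHA libraries again lay below every low DHA library of the same age. Unlike Zpld1, Otol1 was at about the same level at 5 and 10 dph, and its higher level appeared between 10 and 15 dph.

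The fitted Otol1 level at 10 dph was 1.10 times that at 5 dph (log2 0.14 ± 0.13, SE), and at 15 dph it was 3.02 times that at 10 dph (1.60 ± 0.12). The high to low DHA difference was nearly the same at each age: -0.68 ± 0.23 at 5 dph, -0.58 ± 0.21 at 10 dph and -0.68 ± 0.19 at 15 dph, with fitted levels 1.57-fold lower on average. For medium against low DHA it was -0.87 ± 0.21, -0.35 ± 0.21 and -0.17 ± 0.19. The 5 dph value, like that of Zpld1, was not refitted with the length score or with libraries left out. Group means ran from 8.31 ± 2.00 CPM (SD, n = 3) at 5 dph medium to 42.9 ± 5.26 CPM (SD, n = 3) at 15 dph low. The 3 libraries of 15 dph medium spanned most of the range at that age, with a coefficient of variation of 35.7% against a median of 13.6% over the 9 groups.

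otomp went the other way with age. At 5 dph its level was 8.77, 8.18 and 8.09 CPM at low DHA, 7.57, 8.37 and 12.3 CPM at medium DHA, and 9.05 and 10.9 CPM at high DHA. At 10 dph it was 2.61, 4.80 and 5.41 CPM at low DHA, 1.55, 2.83 and 2.70 CPM at medium DHA, and 1.12, 2.57 and 0.658 CPM at high DHA. At 15 dph it was 4.48, 2.92 and 4.09 CPM at low DHA, 3.76, 3.34 and 0.388 CPM at medium DHA, and 4.14, 3.31 and 4.62 CPM at high DHA. Every 5 dph library lay above every older one. At 5 dph both high DHA libraries lay above the low DHA libraries and medium DHA overlapped both groups, and at 15 dph high and low DHA overlapped. At 10 dph the highest high DHA library, 2.57 CPM, lay just under the lowest low DHA library, 2.61 CPM.

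The fitted otomp level was 3.77-fold lower at 10 than at 5 dph averaged over DHA levels (log2 -1.91 ± 0.25, SE). That step was -0.97 ± 0.41 at low DHA, -2.00 ± 0.43 at medium DHA and -2.77 ± 0.48 at high DHA. From 10 to 15 dph the log2 difference was -0.15 ± 0.42 at low, 0.07 ± 0.47 at medium and 1.46 ± 0.48 at high DHA. High against low DHA was 0.26 ± 0.42 at 5 dph, -1.54 ± 0.48 at 10 dph and 0.07 ± 0.42 at 15 dph. The 10 dph difference was -2.24 without high replicate 2 and -1.20 without high replicate 3, and the difference averaged over ages, -0.40 ± 0.26, was -0.64 and -0.29 without the same libraries. otomp had the widest spread of the 3 members, with a coefficient of variation of 73.6% at 15 dph medium and 68.7% at 10 dph high.

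**Figure D1:**
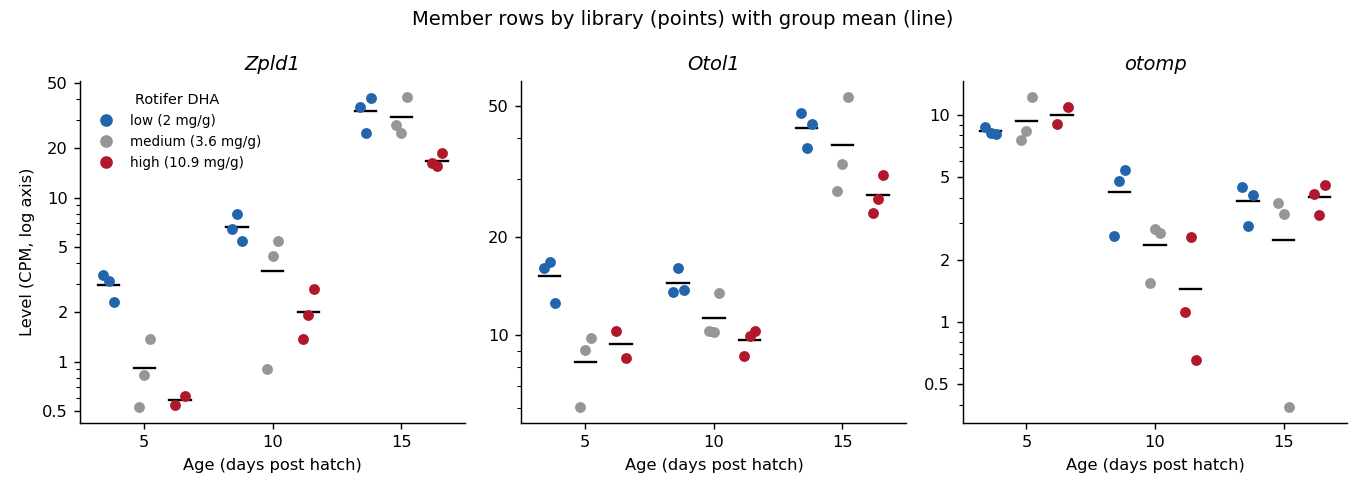
Levels of Zpld1, Otol1 and otomp in CPM on a log axis, for each of the 26 libraries (points) by age and rotifer DHA level, with the group mean as a line. Zpld1 and Otol1 are highest at 15 dph and lower at high than at low DHA at each age, and otomp is highest at 5 dph.

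Ordered by group mean, Zpld1 ran 15 dph low, medium and high, then 10 dph low and medium, 5 dph low, 10 dph high, 5 dph medium and 5 dph high, and in 5 of the 8 neighbouring steps the libraries overlapped. The steps without overlap were from 15 dph medium to 15 dph high, from there to 10 dph low, and from 10 dph low to 10 dph medium. Otol1 likewise had the 3 groups of 15 dph on top, then 5 dph low and 10 dph low together at 15.1 and 14.5 CPM, and 6 of its 8 neighbouring steps overlapped. For otomp 7 of 8 overlapped, and the exception was the step from 5 dph low at 8.35 CPM to 10 dph low at 4.27 CPM. Against low DHA, 2 of 3 members were lower in every high DHA library at 5 dph, 3 of 3 at 10 dph and 2 of 3 at 15 dph. Over all 7292 tested rows that held for 24.7%, 13.5% and 12.8%, and since the members were proposed from such differences nothing is read from these counts. In a fit on the log2 of the DHA content, with a mean for each age, the slope per doubling of DHA was -0.61 ± 0.10 (SE) for Zpld1, -0.26 ± 0.056 for Otol1 and -0.12 ± 0.12 for otomp.

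The table lists further rows under nearly the same names. Rows called ZPLD1 and zpld1 stand beside Zpld1, and a row called otol1a beside Otol1. In all, 454 names that differ only in capitals are shared by 916 rows, and the files do not say which tuna gene each row counts. A RefSeq table for assembly fThuThy2.1 lists single protein-coding genes named zpld1a, otol1a, otol1b and otomp. Whether reads of near-identical copies were split among rows, or the rows count distinct genes, was not tested. The rows ZPLD1, zpld1 and otol1a were not members, and their differences were tested with edgeR's quasi-likelihood test, two-sided, with Benjamini-Hochberg adjustment over the 7292 tested rows.

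The 3 zona pellucida-like rows did not share an age course. ZPLD1 was 4.03, 3.84 and 3.33 CPM at 5 dph low, 1.62, 2.40 and 2.87 CPM at 10 dph low and 1.296, 2.24 and 1.81 CPM at 15 dph low, which is the course of otomp and not of Zpld1. At high DHA the ZPLD1 level was 3.73 and 3.85 CPM at 5 dph, 1.25, 2.26 and 0.921 CPM at 10 dph and 1.68, 1.33 and 1.87 CPM at 15 dph. At medium DHA it was 3.58, 2.57 and 3.30 CPM, then 0.967, 1.22 and 0.880 CPM, and then 0.867, 2.10 and 0.166 CPM. Every 5 dph library except medium replicate 2 lay above every library of 10 and 15 dph for ZPLD1. ZPLD1 fell from 5 to 10 dph by 1.23 ± 0.24 on the log2 scale (adjusted p = 1.33e-04), and its value for 15 against 10 dph was -0.07 ± 0.25 (adjusted p = 0.819).

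The lower-case row zpld1 dipped at 10 dph where DHA was medium or high. Its level was 18.5 to 22.4 CPM at 5 dph low, 17.6 to 21.0 CPM at 10 dph low and 20.7 to 25.5 CPM at 15 dph low, so the low DHA libraries of the 3 ages overlapped. At 10 dph it was 9.99, 11.2 and 13.3 CPM at medium and 9.24, 12.5 and 11.2 CPM at high DHA, all below the low DHA libraries. At 15 dph it was 14.9, 22.5 and 11.6 CPM at medium and 19.8, 17.9 and 25.2 CPM at high DHA. The 10 dph difference of zpld1 passed the test for high against low DHA (log2 -0.85 ± 0.19, adjusted p = 0.00376) and for medium against low DHA (-0.78 ± 0.19, adjusted p = 0.00213). When the length score was added to the fit, they were -0.75 (adjusted p = 0.144) and -0.66 (adjusted p = 0.118). At 5 and 15 dph the high against low value of zpld1 was -0.07 ± 0.20 (adjusted p = 0.912) and -0.09 ± 0.18 (adjusted p = 0.805). The change of that value from 5 to 10 dph, tested itself, was -0.78 ± 0.27 (adjusted p = 0.0483), and 18.1% of all rows passed the same test.

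The row otol1a was low throughout, with 2 to 33 counts per library. It was 1.98, 1.23 and 1.36 CPM at 5 dph low, 0.373, 1.13 and 0.753 CPM at 10 dph low and 0.378, 0.261 and 0.518 CPM at 15 dph low. In every group of 10 and 15 dph its mean was lower than in every 5 dph group. otol1a fell from 5 to 10 dph by 1.78 ± 0.26 on the log2 scale, 3.43-fold (adjusted p = 4.49e-06), over the interval in which Otol1 was 1.10-fold higher.

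**Figure D2:**
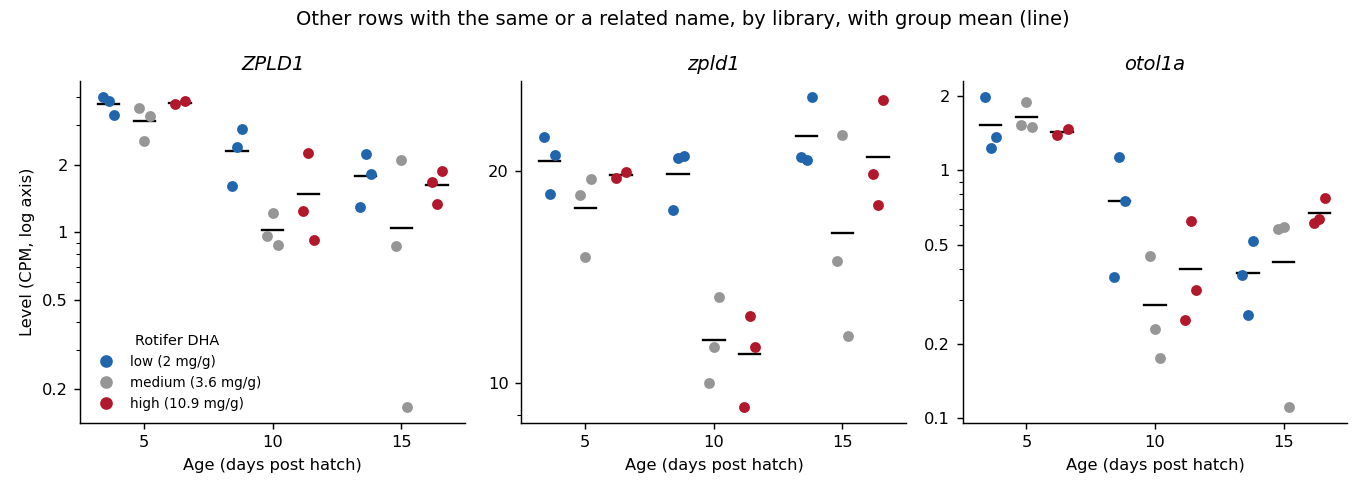
Levels of ZPLD1, zpld1 and otol1a in CPM on a log axis, for each of the 26 libraries (points) by age and rotifer DHA level, with the group mean as a line. ZPLD1 and otol1a are highest at 5 dph, and zpld1 is lowest at medium and high DHA at 10 dph.

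The balance among the 3 zona pellucida-like rows therefore moved with age. Zpld1 held 11.3%, 12.2% and 8.65% of their summed counts in the 5 dph low libraries, 25.2%, 25.6% and 18.7% at 10 dph low and 61.7%, 52.1% and 59.7% at 15 dph low. At high DHA its share was 2.30% and 2.55% at 5 dph, 11.6%, 11.7% and 18.5% at 10 dph and 43.0%, 44.7% and 40.8% at 15 dph. At each age the share was lower in every high DHA library than in every low DHA library, at 10 dph by a narrow margin, 18.5% against 18.7%. At medium DHA it was 2.34% to 5.71% at 5 dph, 7.61% to 27.8% at 10 dph and 50.1% to 77.8% at 15 dph, with 15 dph medium replicate 3 the highest of the 26 libraries. These are shares of counts and not of molecules per length, and this measure was chosen after the levels had been seen.

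Summing the 3 rows before the fit changed the picture of Zpld1. The summed level was 27.3 ± 2.19, 28.7 ± 2.83 and 57.9 ± 9.89 CPM (SD, n = 3 each) at 5, 10 and 15 dph low, and 24.1 ± 0.389 (n = 2), 14.5 ± 2.43 (n = 3) and 39.4 ± 5.68 CPM (n = 3) at high DHA. The summed counts were lower, not higher, at 10 than at 5 dph (log2 -0.37 ± 0.098, SE), and 15 against 10 dph was 1.35 ± 0.093. High against low DHA averaged -0.58 ± 0.096 for the sum and -1.68 ± 0.25 for the row Zpld1. At 5 dph it was -0.19 ± 0.18 for the sum. Otol1 and otol1a were not summed for a fit, since their names differ by more than capitals. Otol1 held 79.8% to 99.8% of the counts of Otol1 and otol1a in the 26 libraries.

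**Figure D3:**
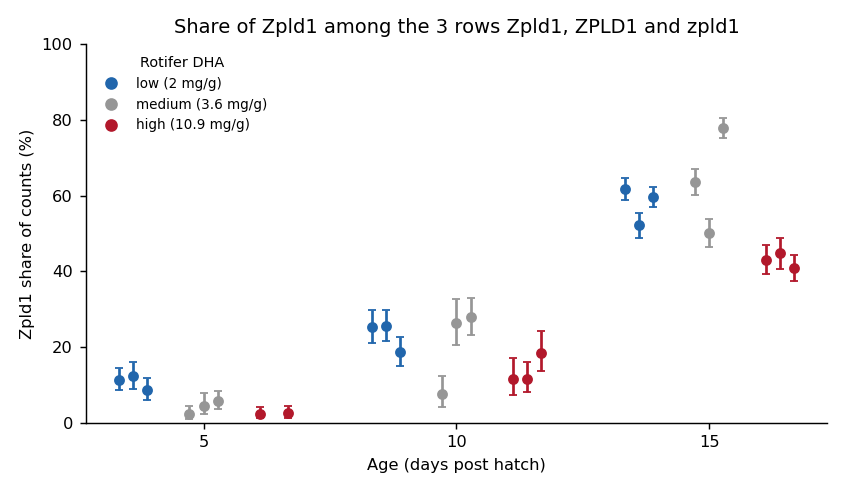
Share of the counts of Zpld1, ZPLD1 and zpld1 that lay in Zpld1, in percent, for each of the 26 libraries by age and rotifer DHA level, with exact binomial 95% intervals (counting error only). The share rises from 2.30% to 12.2% at 5 dph to 40.8% to 77.8% at 15 dph.

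The rows whose levels ran most like each member were sought by Pearson correlation of log2 CPM over the 26 libraries, which share ages and diets, so r is a description. A high r between members may follow in part from their selection on differences between ages and DHA levels. Subtracting age means leaves the DHA differences in place. Zpld1 and Otol1 had r = 0.94, and 0.82 after each age's mean had been subtracted. Among 7291 other rows Otol1 ranked 4 for Zpld1, behind ALDH18A1, which encodes an enzyme of proline synthesis, PYGL, liver glycogen phosphorylase, and Tm6sf2, a gene of lipoprotein secretion, and ahead of RORB, a nuclear receptor of retina and brain, with r from 0.936 to 0.945. For Otol1, Zpld1 ranked 1, followed by cat, which encodes catalase (0.909), FNDC7 (0.907), RORB (0.906) and CHEK1, a DNA damage kinase (0.895). ALDH18A1, PYGL, Tm6sf2, RORB, cat, FNDC7 and CHEK1 had their highest group means at 15 dph, as Zpld1 and Otol1 did.

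With age means subtracted, Otol1 ranked 1 for Zpld1, followed by CBLN2, a cerebellin family gene (0.763), RRBP1, a ribosome-binding protein of the endoplasmic reticulum (0.715), Ssc4d (0.693) and cat (0.684). The 5 for Otol1 were CBLN2 (0.821), Zpld1 (0.818), FNDC7 (0.817), Ssc4d (0.797) and the trypsin gene Prss2 (0.694). CBLN2, on both lists, had mean levels of 39.7, 29.2 and 29.8 CPM in the 5 dph groups from low to high DHA, 32.3, 25.2 and 20.2 CPM in those of 10 dph and 47.0, 34.0 and 29.7 CPM in those of 15 dph. Its low DHA mean was the highest at each age, as for Zpld1 and Otol1.

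otomp had r = -0.34 with Zpld1 and -0.26 with Otol1, and 0.17 and -0.04 with age means subtracted. These values depended on 1 library. Without 15 dph medium replicate 3 they were -0.22 and -0.06, and 0.43 and 0.32 with age means subtracted. The row nearest to otomp of all 7291 was ZPLD1 (r = 0.869) and the next otol1a (0.852). ZBED5 (0.829), STAB2, a scavenger receptor of endothelium (0.802), and the solute carrier gene SLC5A8 (0.785) followed. With age means subtracted, the order was ZPLD1 (0.789), zpld1 (0.751), otol1a (0.662), EFCAB14 (0.647) and ZBED5 (0.641). Over all 26 libraries, rows of otolith and cupula genes thus took the first 3 ranks for otomp when ages were set equal. Part of this came from 1 library: without 15 dph medium replicate 3, the r with ages set equal was 0.54 for ZPLD1, 0.68 for zpld1 and 0.48 for otol1a over 25 libraries, and 0.82 as before for Zpld1 with Otol1. Ranks were not taken again without that library, so whether the first 3 places would hold is not known. That library held 7 otomp counts, 3 ZPLD1 counts and 2 otol1a counts, the lowest level of each among the 26, beside 41.4 CPM of Zpld1 and 53.3 CPM of Otol1, the highest of each.

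**Figure D4:**
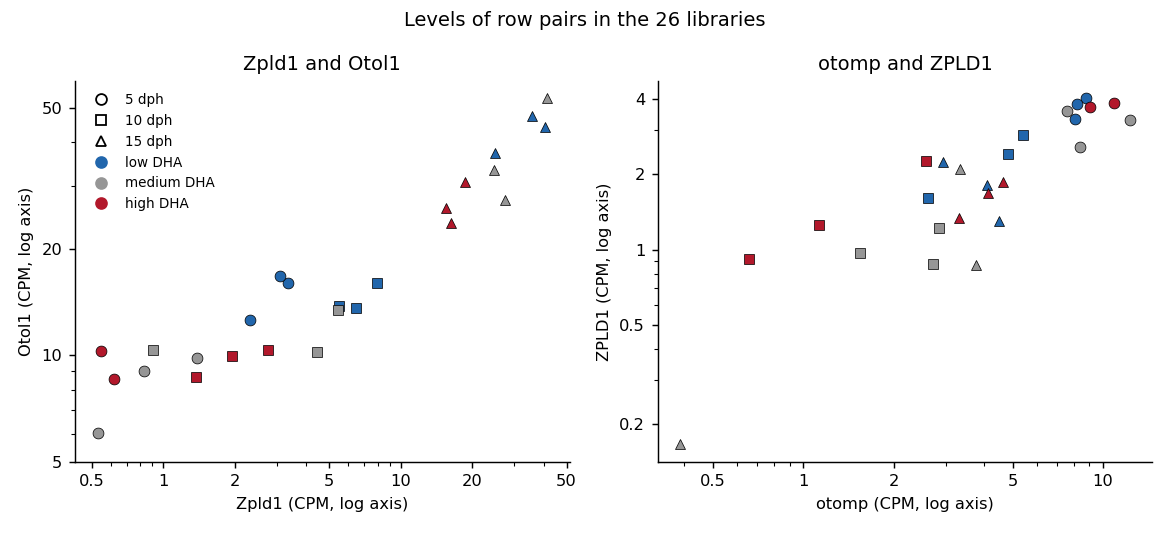
Levels in CPM, on log axes, of Otol1 against Zpld1 (left) and of ZPLD1 against otomp (right), each point 1 of the 26 libraries, with shape for age and colour for rotifer DHA level. Zpld1 and Otol1 increase together to 15 dph (r = 0.94), and otomp and ZPLD1 are high together at 5 dph (r = 0.87) with 15 dph medium replicate 3 lowest for both.

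A list of 24 symbols of otolith and gel matrix genes matched 11 rows, 8 of them not members: the name variants above, OC90, Oc90, Tecta, SPARC and EMILIN3. Averaged over DHA levels, from 5 to 10 dph 5 of the 8 fell and 2 rose, against 31.3% of all tested rows lower and 26.7% higher. The median log2 difference was -0.87, beside -0.02 over all rows. The largest falls by fold were in both rows of otoconin-90, the main matrix protein of mammalian otoconia. OC90 was 3.00, 3.40 and 3.33 CPM at 5 dph low and 0.932, 0.989 and 1.57 CPM at 10 dph low, and fell 3.94-fold averaged over DHA levels (log2 -1.98 ± 0.21, adjusted p = 1.14e-07). Oc90, with 0 to 22 counts per library, had a log2 value of -2.48 ± 0.37 (adjusted p = 6.55e-06). Together with otol1a and ZPLD1 these rows were high at 5 dph and low after it, as otomp was.

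The other rows of that list moved less. zpld1 fell by 0.51 ± 0.11 from 5 to 10 dph (adjusted p = 4.39e-04) and rose by 0.54 ± 0.11 from 10 to 15 dph (adjusted p = 1.96e-04). Tecta, which encodes the tectorial membrane protein alpha-tectorin, rose by 0.40 ± 0.12 from 5 to 10 dph averaged over DHA levels (adjusted p = 0.00866). Its group means at 5 and 10 dph were 159 and 222 CPM at low DHA and 96.9 ± 34.2 (SD) and 156 CPM at medium DHA. At high DHA they were about level, 172 and 176 CPM. SPARC, a collagen-binding protein of many tissues including bone, rose by 0.39 ± 0.091 (adjusted p = 0.001). EMILIN3, an elastin microfibril interface protein, had -0.16 ± 0.087 (adjusted p = 0.122) for the same step. From 10 to 15 dph 1 of the 8 rose, zpld1, and 1 fell, EMILIN3 (-0.25 ± 0.085, adjusted p = 0.0134), against 31.8% of all rows higher and 25.9% lower.

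None of the 8 rows passed the test for high against low DHA averaged over ages in edgeR's quasi-likelihood test, beside 1.08% of all rows lower and 5.14% higher in that comparison. The smallest adjusted p was that of zpld1 (log2 -0.34 ± 0.11, adjusted p = 0.0624). At an unadjusted p under 0.05 the count was 1 of 8, and DESeq2 called 1 of 8. For these measures the shares of all rows are not given here. OC90 had -0.21 ± 0.22, otol1a -0.06 ± 0.26 and Tecta 0.09 ± 0.12, where the Zpld1 row had -1.68 ± 0.25 and Otol1 -0.65 ± 0.12. At 10 dph medium against low DHA was lower in 5 of the 8, beside 10.6% of all rows, namely zpld1, OC90 (-1.32 ± 0.44, adjusted p = 0.0223), Oc90 (-2.73 ± 0.94, adjusted p = 0.0268, from 0, 1 and 1 counts at medium DHA), ZPLD1 (-1.17 ± 0.44, adjusted p = 0.0429) and otol1a (-1.35 ± 0.52, adjusted p = 0.0482). The 5 dropped to 1 without 10 dph low replicate 3 and to 0 when the length score was added to the fit. Shares of all rows in those fits are not given here. The values with the score were -1.29 ± 0.58 for OC90 (adjusted p = 0.157), -3.55 ± 1.06 for Oc90 (adjusted p = 0.0537), -0.90 ± 0.61 for ZPLD1 (adjusted p = 0.331) and -0.53 ± 0.66 for otol1a (adjusted p = 0.618). Those of OC90 and Oc90 were thus about as far from 0 as without it or farther, with larger standard errors. In high against low DHA at 10 dph, 1 of the 8, zpld1, passed the test, beside 4.39% of all rows lower.

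**Figure D5:**
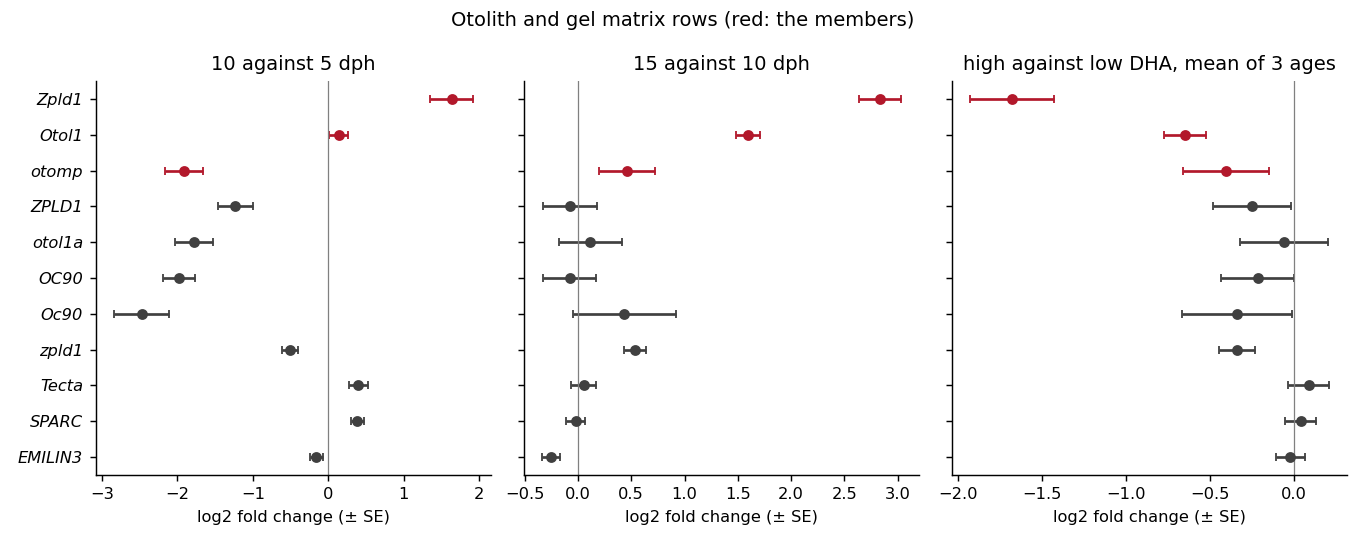
Log2 fold changes with standard errors for the 11 rows of the otolith and gel matrix list, with the 3 members in red, for 10 against 5 dph, 15 against 10 dph and high against low DHA averaged over ages. otomp lies with ZPLD1, otol1a, OC90 and Oc90 at 10 against 5 dph, Zpld1 and Otol1 have the highest values at 15 against 10 dph, and Zpld1 the lowest at high against low DHA.

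A list of 63 hair cell symbols matched 24 rows. Averaged over DHA levels, from 5 to 10 dph 9 fell and 3 rose, beside 31.3% of all rows lower and 26.7% higher. The median was -0.20. By level it was -0.62 at low, 0.21 at medium and -0.18 at high DHA, beside 0.04, -0.01 and -0.002 over all rows. Tmie, part of the transduction channel complex at the tips of hair cell stereocilia, fell in both steps, by 0.71 ± 0.075 (adjusted p = 7.64e-08) and by 0.73 ± 0.077 (adjusted p = 1.03e-07). From 10 to 15 dph, averaged likewise, 8 rose and 4 fell, beside 31.8% of all rows higher and 25.9% lower. The share that rose was thus near that of all rows. By level the median of this step was 0.50 at low, -0.20 at medium and 0.17 at high DHA, beside 0.06, -0.01 and 0.007 over all rows. With the length score in the fit 1 was higher and 5 lower, with no share of all rows given for that fit. Pcdh15, a tip link protein, rose by 0.74 ± 0.14 (adjusted p = 1.21e-04), Myo7a, a motor of stereocilia, rose by 0.53 ± 0.11 (adjusted p = 4.75e-04), and CALB2, a calcium-binding protein of hair cells and neurons, fell by 0.41 ± 0.049 (adjusted p = 6.41e-07). Many of these genes are also expressed in retina, brain or muscle, so a change of the row in whole larvae is not one of the ear alone.

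At 10 dph 8 of the 24 hair cell rows were higher at high than at low DHA, beside 19.4% of all rows, where the members were lower. EPS8, an actin regulator of stereocilia, was higher by 1.14 ± 0.27 (adjusted p = 0.00614), GPSM2, a polarity protein of hair bundles, by 0.66 ± 0.16 (adjusted p = 0.00719), the calcium channel gene CACNA1D by 0.54 ± 0.14 (adjusted p = 0.0105), and otof, the synaptic protein otoferlin, by 0.60 ± 0.19 (adjusted p = 0.0239). The count was 0 without 10 dph low replicate 2 and 0 when the length score, which differed between these groups, was added to the fit. For medium against low DHA at 10 dph 12 of 24 were higher, beside 24.3% of all rows. With the score in the fit 1 was higher, and shares of all rows with the score are not given here. The median log2 difference of medium from low DHA was -0.32 at 5 dph, 0.56 at 10 dph and -0.08 at 15 dph. Over all rows it was 0.04, -0.03 and -0.0035. Averaged over ages, none of the 24 passed for high against low DHA in edgeR's test. At an unadjusted p under 0.05 the count was 3, and in DESeq2 it was 1, with no share of all rows given for either.

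Of 5 rows of endolymph ion transport, 1 was higher and 1 lower at high than at low DHA averaged over ages. Over all rows that held for 5.14% and 1.08%. KCNJ10, a potassium channel of the ear, kidney and glia, was higher (log2 0.41 ± 0.094, adjusted p = 0.0148). Bsnd, the barttin subunit of chloride channels of ear and kidney, was lower (-0.40 ± 0.10, adjusted p = 0.0262). With each library left out in turn, the test was not passed in 1 of 26 fits for KCNJ10 and in 5 of 26 for Bsnd. Averaged over DHA levels, of 22 rows of ear development genes 9 fell and none rose from 5 to 10 dph. Of all rows 31.3% were lower and 26.7% higher. Among those that fell were pax8 (-0.78 ± 0.080, adjusted p = 5.61e-08) and pax2a (-0.62 ± 0.089, adjusted p = 5.01e-06), transcription factors of the early ear and kidney. From 10 to 15 dph 9 fell and 5 rose, beside 25.9% of all rows lower and 31.8% higher, with pax8 again lower (-0.64 ± 0.081, adjusted p = 1.24e-06). GRHL2, an epithelial transcription factor, was the 1 row of the 22 called for DHA averaged over ages, higher at high DHA by 0.29 ± 0.058 (adjusted p = 0.00683). Tissue rows near the ear were 16 of cartilage and bone and 11 of lens. For high against low DHA averaged over ages, 1 and 0 passed in edgeR's test. At an unadjusted p under 0.05 the counts were 5 and 10, and DESeq2 called 2 and 0. The shares of all rows by these measures are not given here, so nothing is read from these counts. At 10 dph, medium against low DHA was lower in 10 of the 16 and 9 of the 11. Beside these stood 5 of the 8 otolith rows and 10.6% of all rows. The otolith count dropped to 0 with the length score in the fit, with no share of all rows given for that fit. Counts of cartilage, bone and lens rows were not taken with the score or with libraries left out. In cartilage and bone rows the median difference of medium from low DHA was 0.19, -0.94 and -0.11 at 5, 10 and 15 dph. In the lens rows it was 0.66, -0.82 and 0.02, so the direction at 10 dph was not that at 5 dph. Over all rows it was 0.04, -0.03 and -0.0035. High against low DHA at 10 dph was lower in 7 of the 11 lens rows, beside 4.39% of all rows. Of the 16 cartilage and bone rows 0 were lower there and 1 was higher, beside 19.4% of all rows higher.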

How the data were processed

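RNA of whole larvae was made into libraries with the TruSeq RNA kit, per the labels' protocols, and the authors deposited whole-number counts per row for 26 libraries. The submitters' processing notes name DESeq2. How reads were aligned and to which genome build is not given in the sources used here. Another 4 internal control samples were not analysed here. The members and the gene lists were chosen with earlier results of these data known. The counts were fitted in R 4.3.3 with edgeR 4.0.16 (limma 3.58.1): filterByExpr kept 7292 of 7295 rows, TMM scaling, a mean per group, robust quasi-likelihood F-tests, two-sided, with Benjamini-Hochberg adjustment over the 7292 rows and a threshold of 0.05. The common biological coefficient of variation was 11.9%. The scripts were tested on simulated data. Standard errors are the log2 fold change divided by the square root of F. Members have no test. Named are, from each list, up to 4 rows of smallest p among those that passed in a comparison, or the 2 of smallest p where none passed, and for each member the 5 rows of highest correlation (log2 CPM, prior count 2). Other rows named, such as SPARC, EMILIN3 and Myo7a, were chosen after their values were seen. Names were matched without regard to capitals, and 4404 of 7295 matched a RefSeq symbol. The labels do not tie a replicate number to a tank, so p-values measure the spread between libraries, and 1 tank may have given libraries of several ages. Replicates of a group differed in 25 pairs by more than counting noise (chi-square per row 4.42 to 72.9). DESeq2 1.42.0, other scalings, no filter, a length score, a block and left-out libraries were the alternatives.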

Additional observations from a re-analysis of the deposited data

Results flagged for a closer look

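The difference between high and low DHA changed from 5 to 10 dph, by edgeR's test of that change itself with adjustment over 7292 rows, in 11 of the 59 rows of the 4 ear lists (18.6%), a share near the 18.1% of all rows. The row zpld1 moved down, with a log2 change of -0.78 ± 0.27 (SE; adjusted p = 0.0483), from -0.07 at 5 dph to -0.85 at 10 dph. Of the 24 hair cell rows 9 moved up and 0 down. The 18.1% counts both directions, and a share of all rows for each direction is not given here. Nothing is therefore read from that split. The name pairs EPS8 with Eps8 and CACNA1D with Cacna1d are each counted as separate rows. For 2 other pairs only 1 row passed: CABP1 had -0.14 ± 0.16 (adjusted p = 0.558) and Xirp2 0.55 ± 0.25 (adjusted p = 0.126). Among the 9 were EPS8 by 1.66 ± 0.39 (adjusted p = 0.011), Pcdh15 by 1.29 ± 0.38 (adjusted p = 0.0243), Eps8 by 1.20 ± 0.39 (adjusted p = 0.0356) and XIRP2 by 1.20 ± 0.24 (adjusted p = 0.00678). The change was 0.97 ± 0.27 for otof (adjusted p = 0.0205), 0.93 ± 0.22 for CACNA1D (adjusted p = 0.0107), 0.91 ± 0.22 for Cacna1d (adjusted p = 0.0124), 0.90 ± 0.24 for GPSM2 (adjusted p = 0.016) and 0.76 ± 0.24 for Cabp1 (adjusted p = 0.0364). The ion transport row KCNJ10 moved up by 0.91 ± 0.24 (adjusted p = 0.0154). The length score moved between the same groups, from -3.65 at 5 dph low and -4.15 at 5 dph high to -5.25 and -4.42 at 10 dph, and its part in these changes was not tested here. Hair cell rows higher at high than low DHA at 10 dph numbered 0 without 10 dph low replicate 2. The changes between ages were not refitted with libraries left out.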

How the results depend on the processing

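Over 10 alternatives each, the log2 values of Otol1 and otomp for the age steps and for high against low DHA, averaged over the other factor, kept their sign. Summing rows whose names differ only in capitals turned Zpld1 at 10 against 5 dph to -0.37. The same sum kept the sign of its other values but made them smaller, -0.58 for high against low DHA averaged over ages and 1.35 for 15 against 10 dph. No other alternative turned a sign of Zpld1. With each library left out in turn, Zpld1 gave -1.77 to -1.61 for high against low DHA, 1.48 to 1.79 for 10 against 5 dph and 2.68 to 2.99 for 15 against 10 dph, and in the same order Otol1 -0.70 to -0.61, 0.08 to 0.19 and 1.49 to 1.66, and otomp -0.64 to -0.29, -2.15 to -1.80 and 0.31 to 0.69, both ends of the first otomp range resting on 10 dph high replicates 2 and 3. Without 15 dph medium replicate 3, otomp at 15 against 10 dph was 0.64 ± 0.20.

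Counts of list rows depended more on the processing. The shares of all rows in these alternatives are not given here, so nothing about these lists alone is read from the shifts. Otolith rows lower at medium than low DHA at 10 dph numbered 3 with library totals only, 0 with the length score, 3 without both libraries of lowest TMM factor, and 1 to 6 with a library left out. Hair cell rows higher at high than low DHA at 10 dph numbered 0 with the length score, 1 without both those libraries, 0 with only the groups compared, and 0 to 12 with a library left out. Hair cell rows higher at medium than low DHA at 10 dph numbered 1 with the length score and 11 to 14 with a library left out. From 10 to 15 dph, with library totals only, 14 hair cell rows were higher and 2 lower, with the length score 1 was higher, and with a library left out 6 to 8 were higher and 4 lower. From 5 to 10 dph, 1 otolith row was higher with library totals only, and with a library left out 2 were higher and 5 to 6 lower, and 3 hair cell rows were higher and 8 to 11 lower. The cause of these shifts was not tested.

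Over 25 pairs of libraries of the same age and replicate number, deviations from group means correlated at -0.25 to 0.31 (median 0.06), with 12 over 0.1. Over 50 pairs of the same age and other numbers they correlated at -0.37 to 0.40 (median -0.03), with 12 of the 50 over 0.1. Between ages, 75 pairs of the same number had a median of 0.04, with 25 over 0.1. The 150 pairs of other ages and numbers had a median of -0.02, with 33 over 0.1. In both sets pairs of the same number leaned higher, but correlations this weak can neither show nor exclude a pairing by number. With the title number as a replicate block, high against low DHA averaged -1.72 for Zpld1, -0.68 for Otol1 and -0.42 for otomp. In that fit 4 otolith rows were lower at medium than low DHA at 10 dph. Among the otolith and gel matrix rows, low counts limit Oc90, otol1a, OC90 and, at 5 dph high, Zpld1 most. Their lowest summed counts of a group were 2, 13, 21 and 22. For ZPLD1 the lowest was 46 and for otomp 69.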
